A study of Mus musculus with 25 samples.

Results

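The loops described here were pairs of 1 kb genome bins that were listed in the deposited H3K27ac HiChIP tables of both IL-2-treated libraries of upstream deletion and WT CD8+ T cells, at exactly the same bins, and in neither of the 2 matching control libraries. They are called IL-2-only loops below. There were 6662 of them, out of 121571 bin pairs listed in any of the 6 libraries. They made up 11.8% of the 56302 pairs listed in both of these IL-2 libraries; the other 49640 pairs were listed in at least 1 of the controls as well. The reverse set, listed in both controls and in neither IL-2 library, held 1810 pairs, or 3.76% of the 48158 pairs listed in both controls. Being listed in these 4 libraries chose the loops, so their contacts and coverage in them are a description and carry no test. The intron deletion libraries took no part in the choice.

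A pair was listed only with 20 or more contacts and with its bins at least 5 kb apart. An unlisted pair is below the listing limit, with at most 19 contacts, unless the authors' peaks left out an anchor or a further threshold of the loop caller applied. It is not a count of 0.

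In HiChIP, chromatin that is folded close together is ligated, the ligated DNA is pulled down with an antibody, in this case to acetylated lysine 27 of histone H3, and read pairs between bins are counted. H3K27ac marks active promoters and enhancers, so a pair with many contacts usually connects such elements. IL-2 is a growth and differentiation cytokine of activated T cells; its receptor signals through JAK kinases to STAT5, which binds DNA, often at the motif TTCNNNGAA, and is known to switch on feedback inhibitors such as Cish and Socs1, survival genes such as Bcl2 and Pim1, and Il2ra, the gene of the receptor's alpha chain CD25.

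The cells were CD8+ T cells from spleens of C57BL/6J mice, activated over 2 days and then rested 4 h. The 3 genotypes were a CRISPR deletion within an Il2ra intron (intron deletion), another one upstream of that gene (upstream deletion) and wild type (WT). Each was treated with IL-2 or kept as a control, which gave 6 libraries, 1 per genotype and treatment. No label ties a library to an animal or culture. The sources used here do not give where the deletions lie or at what dose and for how long IL-2 was added to these cells. With 1 library per group no difference within a genotype has a replicate check. No test between conditions was run, since 4 of the 6 libraries chose the loops. The names of the deposited tables carry the replicate number 2, which the labels do not; a replicate 1 was not analysed here. Intervals below are exact, at 95%, and cover counting error only. The libraries listed between 38879 and 94922 pairs with 1314137 to 3596995 contacts.

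The IL-2 library was the deeper of each genotype. Over the 28033 pairs listed in all 6 libraries it held 1.44 times the contacts of its control in the intron deletion, 1.06 times in the upstream deletion and 1.18 times in WT. How far depth sets which loops cross the limit of 20 was not tested beyond the scaled counts given below. Over the same pairs the libraries labelled intron deletion with IL-2 and intron deletion control differed by 0.99 times the variance that counting alone gives, that is, by no more than sampling noise. No IL-2-only loop is among these pairs, as those loops were unlisted in the upstream deletion and WT controls, so the value does not cover them. The same measure was 1.78 between the upstream deletion libraries and 1.77 between the WT libraries, while it was 1.20 between upstream deletion and WT with IL-2 and 1.246 between their controls. Between an intron deletion library and one of the other 4 this measure was lowest, 1.58, for the intron and upstream deletion controls. It was highest, 3.03, between the intron deletion and WT with IL-2. The intron deletion libraries thus differed less from each other than from any of the other 4. Every intron deletion comparison below rests on a pair of libraries that differed little over these pairs. Whether the cells behind both were treated as labelled was not tested, so with IL-2 and in control mean, for this genotype, the libraries labelled so. All 7 CD8 T cell markers looked at (Cd8a, Cd8b1, Cd3d, Cd3e, Cd3g, Thy1 and Lck) had a gene end in a bin listed in both IL-2 libraries of upstream deletion and WT. This held for 1 of 5 CD4+ and regulatory T cell markers (Ikzf2), 2 of 5 NK cell markers (Klrb1c and Tyrobp), 1 of 6 B cell markers (Cd79a), 2 of 6 myeloid markers (Cd68 and Spi1) and 0 of 5 erythroid markers. Klrb1c and Tyrobp had an IL-2-only loop each, with 29 and 22 contacts in the upstream deletion and WT IL-2 libraries at Klrb1c and 31 and 44 at Tyrobp.

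The promoters below show what DNA lies before annotated start sites at the anchors of such loops. They are the 250 bases before a RefSeq start site (GRCm38.p6), written 5′ to 3′ on the gene's own strand, and each start site lies in an anchor bin of IL-2-only loops. Capitals mark TTCNNNGAA, which reads the same on both strands. Il7r (chr15:9529877-9530126, minus strand) encodes the IL-7 receptor alpha chain, Bcl6 (chr16:23988853-23989102, minus strand) a repressor that STAT5 opposes, Tnfrsf18 (chr4:156026072-156026321, plus strand) the costimulator GITR, Tnfrsf9 (chr4:150927749-150927998, plus strand) the costimulator 4-1BB, and Batf3 (chr1:191098164-191098413, plus strand) an AP-1 family factor. Fosl2 (chr5:32136222-32136471, plus strand), an AP-1 subunit, and Hk2 (chr6:82774455-82774704, minus strand), the hexokinase of activated lymphocytes, had the most IL-2-only loops of any start site bin, 12 each, and have no match to the motif in this window. The Tnfrsf9 start site shown does not lie in a bin that holds an annotated end of that gene. These 7 promoters were picked with their values known.
Il7r: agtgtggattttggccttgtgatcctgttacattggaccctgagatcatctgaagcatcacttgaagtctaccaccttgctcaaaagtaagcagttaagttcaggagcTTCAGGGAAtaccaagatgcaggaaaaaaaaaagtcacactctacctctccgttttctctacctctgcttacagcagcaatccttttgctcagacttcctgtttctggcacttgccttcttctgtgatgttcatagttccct
Bcl6: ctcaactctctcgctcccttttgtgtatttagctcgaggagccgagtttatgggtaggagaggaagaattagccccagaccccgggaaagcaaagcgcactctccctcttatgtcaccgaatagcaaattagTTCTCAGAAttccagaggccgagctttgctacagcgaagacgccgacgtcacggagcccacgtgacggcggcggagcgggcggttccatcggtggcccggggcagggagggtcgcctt
Tnfrsf18: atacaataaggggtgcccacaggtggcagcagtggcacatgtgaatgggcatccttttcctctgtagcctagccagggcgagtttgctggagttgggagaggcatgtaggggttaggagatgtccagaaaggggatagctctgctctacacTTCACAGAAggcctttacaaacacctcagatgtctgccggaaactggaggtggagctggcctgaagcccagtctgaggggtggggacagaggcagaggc
Tnfrsf9: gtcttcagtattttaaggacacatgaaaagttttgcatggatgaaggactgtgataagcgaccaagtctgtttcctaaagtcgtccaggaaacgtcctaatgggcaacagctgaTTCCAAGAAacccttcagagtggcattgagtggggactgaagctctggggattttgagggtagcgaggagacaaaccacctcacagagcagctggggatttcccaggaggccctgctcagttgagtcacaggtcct
Batf3: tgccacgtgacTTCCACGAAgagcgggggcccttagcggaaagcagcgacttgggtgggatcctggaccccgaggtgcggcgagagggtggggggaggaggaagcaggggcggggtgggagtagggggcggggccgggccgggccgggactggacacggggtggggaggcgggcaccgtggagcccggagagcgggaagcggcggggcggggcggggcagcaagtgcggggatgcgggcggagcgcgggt
Fosl2: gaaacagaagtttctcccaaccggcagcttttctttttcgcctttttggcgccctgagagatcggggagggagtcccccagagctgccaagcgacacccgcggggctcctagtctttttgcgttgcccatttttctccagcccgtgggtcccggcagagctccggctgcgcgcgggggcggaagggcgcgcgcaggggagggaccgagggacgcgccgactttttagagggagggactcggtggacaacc
Hk2: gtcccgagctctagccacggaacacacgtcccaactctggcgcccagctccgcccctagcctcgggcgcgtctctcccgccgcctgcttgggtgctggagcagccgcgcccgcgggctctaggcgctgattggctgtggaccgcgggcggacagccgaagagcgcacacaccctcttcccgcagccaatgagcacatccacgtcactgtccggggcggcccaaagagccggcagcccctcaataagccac

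The motif began 142 bases before the start site in Il7r, 118 in Bcl6, 99 in Tnfrsf18, 136 in Tnfrsf9 and 239 in Batf3. Across all start sites in anchor bins of IL-2-only loops, 94 of 1366 promoters held a match (6.88%, interval 5.60 to 8.36%). It was 184 of 3437 (5.35%, 4.62 to 6.16%) for start sites in other bins listed in both IL-2 libraries, and 2295 of 32585 (7.04%) for all RefSeq start sites. The promoters at IL-2-only loops therefore held the motif about as often as promoters in general; the window covers no distal element, and a match is not evidence of binding.

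Most IL-2-only loops lay close to the listing limit. Their contacts ranged over 20 to 96 in the upstream deletion IL-2 library, with a median of 23, and over 20 to 112 in the WT IL-2 library, with a median of 27. In the upstream deletion 63.5% had 20 to 24 contacts, and in WT 36.2%. The loops listed with IL-2 and in a control had medians of 32 and 41 contacts in these libraries. At the edge, 115 IL-2-only loops had exactly 20 contacts in both IL-2 libraries, such as one of 48 kb from inside Nabp1 (chr1:51466001-51467000). Just outside, 1201 pairs missed the set because 1 control listed them at exactly 20. One joined a bin inside Lta to one inside Nfkbil1 (chr17:35204001-35205000 and chr17:35228001-35229000) and had 59 contacts in the upstream deletion and 97 in the WT IL-2 library, with 20 in the upstream deletion control. Another, inside Clec16a (chr16:10640001-10641000 and chr16:10655001-10656000), had 72 in both IL-2 libraries and 20 in the same control.

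**Figure D1:**
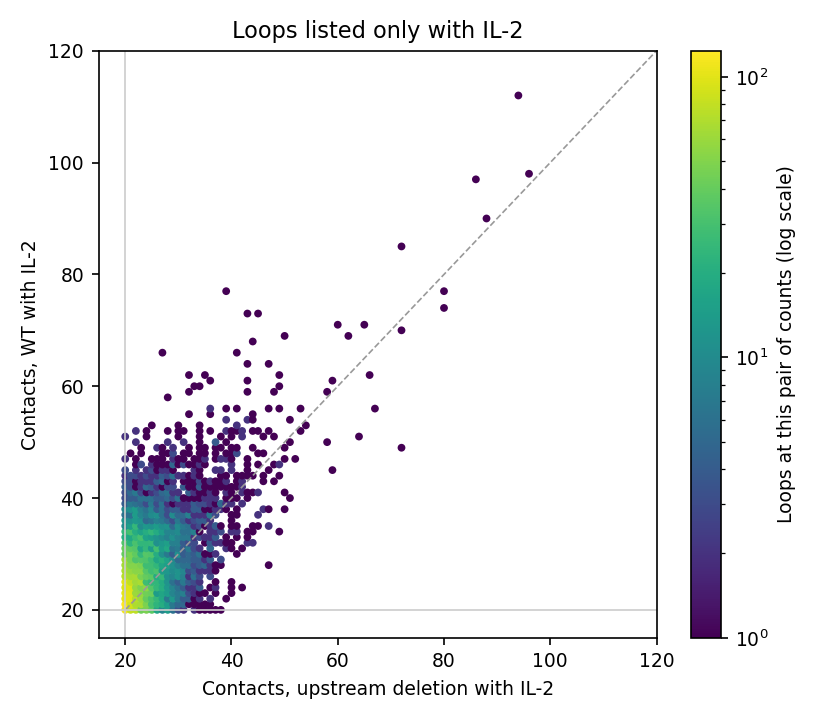
Contacts of each IL-2-only loop in the upstream deletion IL-2 library (x axis) and the WT IL-2 library (y axis), coloured by the number of loops at each pair of counts on a log scale; grey lines mark the listing limit of 20 and the dashed line equal counts. Most points crowd the corner at the limit, with medians of 23 and 27, and the loop from Fcmr to Il24 at 94 and 112 lies farthest out.

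A least fold was set by taking the unlisted control at 19 contacts and scaling the IL-2 count to the control's depth. It takes the counts as they stand, without counting error (30 contacts have an interval of 20.2 to 42.8), in the libraries that chose the loops. The least fold thus describes the counts and does not bound a change. On that basis 1167 loops (17.5%) were at least 25% higher with IL-2 in both upstream deletion and WT, 407 (6.11%) at least 1.5-fold, 73 (1.10%) at least 2-fold and 14 (0.210%) at least 2.5-fold. The least fold also needs the control to have been unlisted for having under 20 contacts. That reading is most direct where both anchor bins were themselves listed in both controls with other partners, as for 3958 loops (59.4%). Of these, 243 were at least 1.5-fold higher and 38 at least 2-fold. For 386 loops in the upstream deletion control and 220 in the WT control neither anchor was listed at all.

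IL-2-only loops spanned longer distances than loops that a control also listed. Their median span was 20 kb (quartiles 10 and 44 kb), against 13 kb (8 and 26 kb), and 8.41% of them, 560 loops, spanned 100 kb or more, against 3.14%. Loops listed only in controls had a median span of 17 kb, with 5.75% at 100 kb or more. The longest IL-2-only loop spanned 821 kb. The sets also differ in contacts, which fall with distance, and the part of this in the spans was not tested. A protein-coding gene end, meaning a bin that holds either annotated end of the gene, was found at 22.5% of IL-2-only loops (1502), 31.8% of loops that a control also listed and 22.3% of loops listed only in controls. In 23.4% of IL-2-only loops neither anchor lay in a protein-coding gene, against 17.1% of those that a control also listed. Intergenic below means outside protein-coding genes, and such a bin can hold a gene of another kind.

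Many of the loops lay in a small number of bins and loci. They used 7711 anchor bins, of which 5431 held 1 loop and 102 held 10 or more. The 771 bins with the most loops took part in 51.7% of them. Joined by anchors at most 1 bin apart, they formed 1458 loci: 828 of these had 1 loop, while 119 with 10 or more loops held 60.6% of all, and the 10 largest held 1374 (20.6%). Loops within a locus share bins and reads and are not independent of each other. The same counts are not given here for the other pairs, so they do not show a trait particular to IL-2-only loops. By chromosome, IL-2-only loops were 24.3% of the pairs listed in both IL-2 libraries on chromosome 16, which holds the Socs1 locus, and 18.9% on chromosome 5, which holds Rbpj and Cdk6, against 7.23% on chromosome 12, the lowest share.

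**Figure D2:**
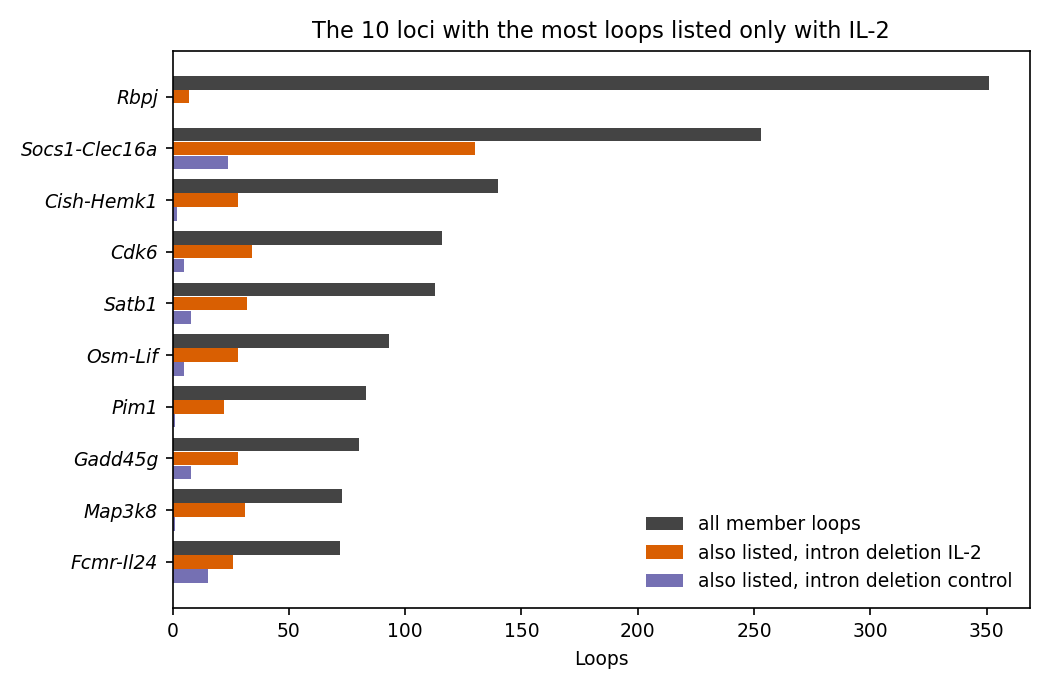
Number of IL-2-only loops in each of the 10 largest loci (dark bars) and how many of them were also listed in the intron deletion IL-2 library (orange) and the intron deletion control library (violet). At Rbpj 7 and 0 of 351 loops were listed there, and at the Socs1 and Clec16a locus 130 and 24 of 253.

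The largest locus lay at Rbpj, the DNA-binding factor of Notch signalling, on chromosome 5 (chr5:53352001-53605000). It held 351 IL-2-only loops, of 1098 pairs listed there in both IL-2 libraries, and 168 had an anchor inside the Rbpj gene. Its strongest loop crossed 164 kb, from an intergenic bin (chr5:53403001-53404000) to one inside Rbpj (chr5:53567001-53568000), with 45 contacts in the upstream deletion and 73 in the WT IL-2 library, and was listed in neither intron deletion library. The bin with the most IL-2-only loops of the whole set, 37, was intergenic (chr5:53542001-53543000). It had 2208 reads in the intron deletion IL-2 library and 1518 in its control, 5009 and 2576 in the upstream deletion, and 6370 and 3079 in WT. Scaled by the bins listed in all 6 libraries, IL-2 over control was 1.001 in the intron deletion, 1.90 in the upstream deletion and 1.76 in WT. In the intron deletion 7 of the 351 loops were listed with IL-2 and 0 in control.

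The next locus ran over Socs1, Rmi2 and Clec16a on chromosome 16 (chr16:10566001-10869000), with 253 IL-2-only loops. Socs1 encodes a JAK inhibitor of the IL-2 pathway, and Clec16a is its large neighbour, in which 162 of the loops had an anchor. Socs1 had the most IL-2-only loops of any gene end, 23, followed by Rmi2 with 16. One loop joined the leading bin inside Clec16a (chr16:10639001-10640000) to an intergenic bin 132 kb away (chr16:10771001-10772000), beside Socs1, with 39 contacts in the intron deletion IL-2 library and 22 in its control, and 54 and 53 in the upstream deletion and WT IL-2 libraries. The leading bin had, with IL-2 and in control, 4529 and 2414 reads for the intron deletion, 5889 and 2807 for the upstream deletion and 7297 and 3325 in WT, which gave scaled ratios of 1.29, 2.05 and 1.87. Here the intron deletion listed more of the loops than at Rbpj, 130 with IL-2 and 24 in control.

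Cdk6, a G1 cyclin-dependent kinase, had 116 IL-2-only loops on chromosome 5 (chr5:3152001-3516000), 68.6% of the 169 pairs listed there in both IL-2 libraries, and every one had an anchor inside the gene. A 17 kb loop within it (chr5:3460001-3461000 to chr5:3477001-3478000) had 72 contacts (interval 56.3 to 90.7) in the upstream deletion IL-2 library and 85 (67.9 to 105) in the WT IL-2 library, and in the intron deletion 44 with IL-2 and 26 in control. Both anchors were listed in both controls with other partners, so the loop was below 20 contacts there, or failed a threshold not given, although its bins were in the peak set. Its first bin showed the largest coverage ratio among member anchors in both genotypes of the rule: 4666 reads with IL-2 and 1031 in control in the upstream deletion (scaled ratio 4.42), and 5550 and 1140 in WT (4.15). In the intron deletion it had 3107 and 1576 reads (1.36). At WT control depth the intron deletion control stood at 2330 reads in this bin, above the 1214 of the upstream deletion control and the 1140 of the WT control.

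The locus of Fcmr and Il24 on chromosome 1 (chr1:130877001-130907000) held the strongest loops. Fcmr encodes the IgM Fc receptor and Il24 a cytokine of the IL-10 family. The loop between them (chr1:130879001-130880000 to chr1:130886001-130887000) had 94 contacts (76.0 to 115) in the upstream deletion and 112 (92.2 to 135) in the WT IL-2 library. All 72 pairs listed in this span in both IL-2 libraries were IL-2-only loops, and none of their 22 anchor bins was listed in the upstream deletion or WT control. The intron deletion control differed from those controls in its listing here: it listed 15 of the 72 loops, and its IL-2 library 26. With no anchor listed in the upstream deletion and WT controls, contacts under 20 and bins left out of the peaks cannot be told apart there. The loop above had 46 contacts in the intron deletion with IL-2 and 36 in its control, and the Fcmr anchor 2060 and 1187 reads, a scaled ratio of 1.19.

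**Figure D3:**
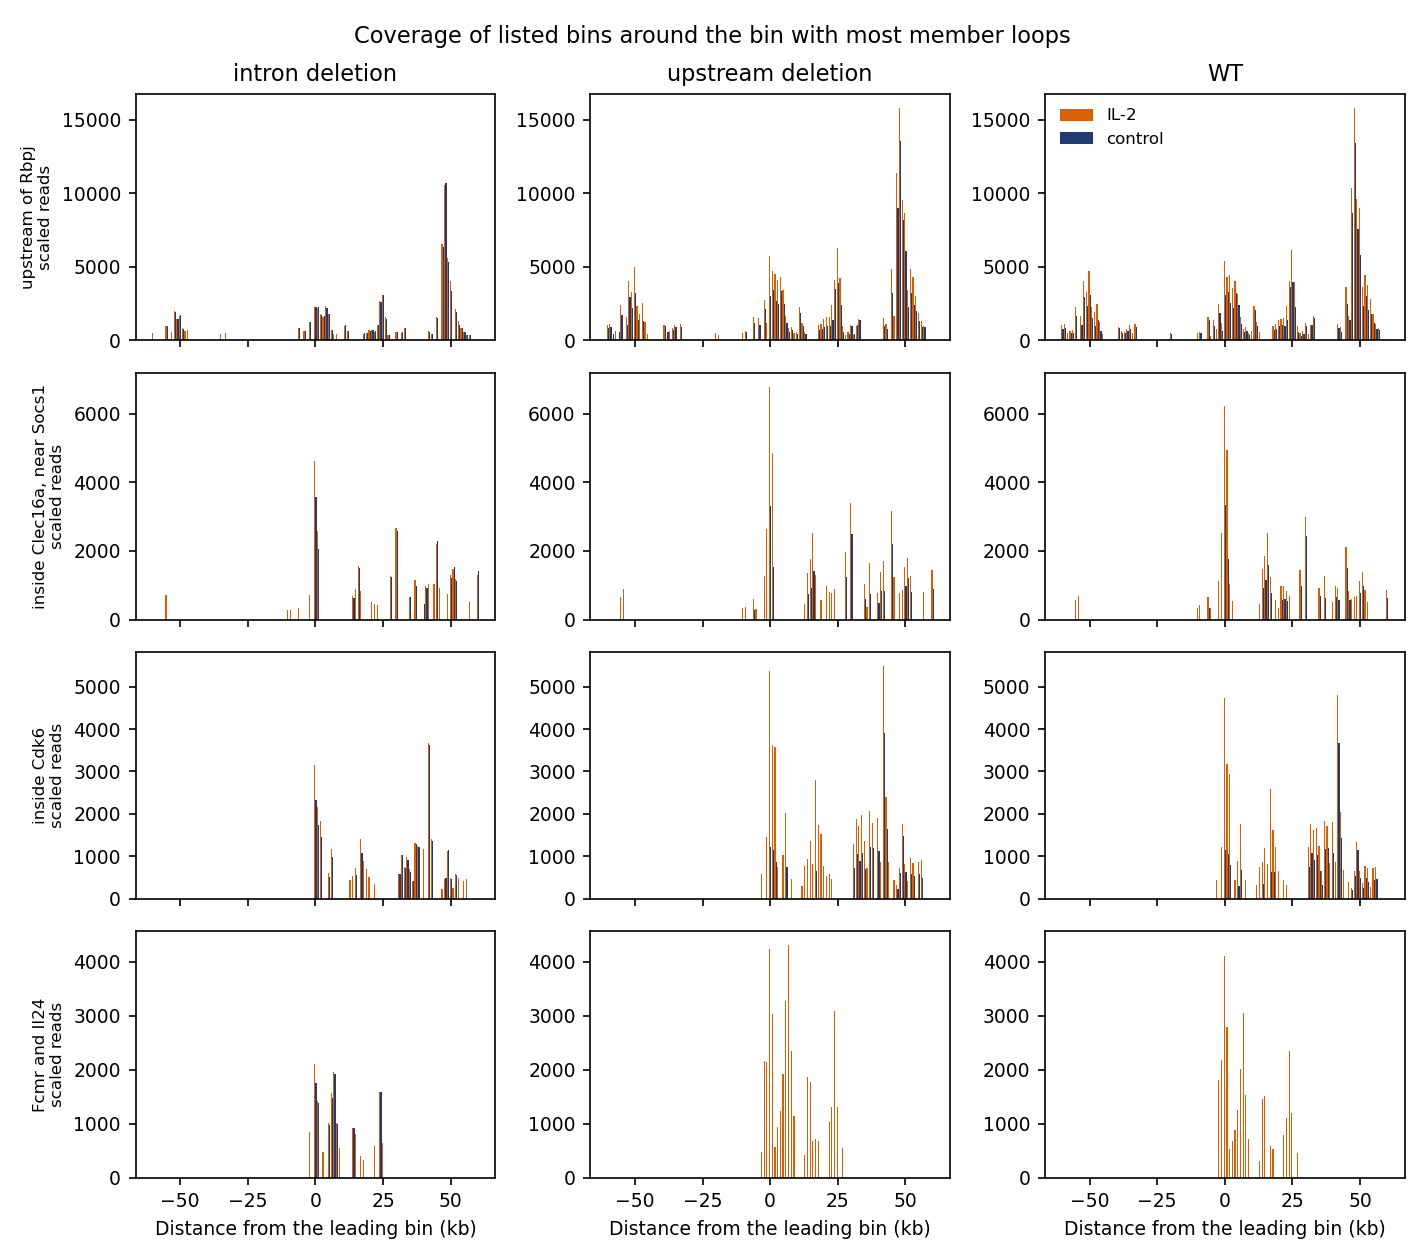
Coverage of listed bins (reads scaled to the depth of the WT control) against distance in kb from the bin with the most IL-2-only loops, at 4 loci (rows), for IL-2 (orange) and control (blue) in the intron deletion, upstream deletion and WT (columns); a missing bar is an unlisted bin, not 0. At Fcmr and Il24 control bars appear in the intron deletion and in neither other genotype; at Cdk6 the leading bin stands at 3162 and 2330 scaled reads with IL-2 and in control for the intron deletion, 5364 and 1214 for the upstream deletion and 4728 and 1140 in WT.

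The other large loci held between 73 and 140 loops each. Around Cish, the SOCS family inhibitor, and its neighbour Hemk1 (chr9:106892001-107552000) there were 140 IL-2-only loops. The strongest ended inside Hemk1 (chr9:107336001-107337000), with 20 contacts in the intron deletion IL-2 library, 60 in the upstream deletion and 71 in WT. Osm and Lif, genes of IL-6 family cytokines on chromosome 11, had 93 loops (chr11:4187001-4424000). There the leading bin, inside Lif (chr11:4265001-4266000), had scaled coverage ratios of 1.20 in the intron deletion, 3.55 in the upstream deletion and 2.71 in WT. Pim1, a survival kinase, had 83 loops (chr17:29264001-29515000) with ratios of 1.16, 2.15 and 1.83 at its leading bin. Gadd45g, a stress response gene, had 80 (chr13:51736001-52097000) with ratios of 1.09, 1.60 and 1.48. Map3k8, the kinase Tpl2, had 73 (chr18:4252001-4372000) with ratios of 1.31, 2.22 and 2.05.

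Satb1, a chromatin organiser of T cells, had the lowest coverage ratios at the leading bin among the 9 of these loci with values in every genotype. Its locus (chr17:51813001-52183000) held 113 IL-2-only loops, yet the leading bin inside the gene (chr17:51832001-51833000) had 14638 and 10117 reads with IL-2 and in control for the intron deletion, 15096 and 14083 for the upstream deletion and 19358 and 16143 in WT. The scaled ratios were 0.996, 1.05 and 1.02. Over all anchor bins of the locus with values the median ratio was 1.08 in the intron deletion, 1.18 in the upstream deletion and 1.23 in WT.

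At gene ends, 1150 protein-coding genes met an IL-2-only loop, which is 28.7% of the 4013 genes with an end in a bin listed in both IL-2 libraries; in pairs, IL-2-only loops were 8.7% of the 17267 pairs with a gene end. Of 24 measured IL-2 and STAT5 target genes, 21 had such a loop (Il2ra, Mcl1 and Prf1 did not), and 94 of the 583 pairs at their ends were IL-2-only (16.1%). A gene with more listed pairs has more chances to hold such a loop. Counts of genes, here and in the lists below, therefore also depend on the pairs per gene. Lta, which encodes lymphotoxin alpha, had 6, with 23 to 44 contacts in the upstream deletion and 39 to 77 in WT with IL-2. Tnfrsf9 had 1, with 43 and 41 contacts and also found in the intron deletion IL-2 library. Myc, the growth regulator, had 5, Bcl2 4 and Gzmb, the cytotoxic protease granzyme B, 3, all with medians of 23 to 28 contacts. The list was drawn up with earlier results of these data known, so its share is not independent evidence.

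Among growth, metabolism and cell cycle genes 8 of 15 had an IL-2-only loop, and 38 of their 134 pairs were IL-2-only (28.4%), the highest share of the pathway lists. The lists overlap: Myc, Ccnd2, Ccnd3 and Cdk6 are in the IL-2 and STAT5 target list too, and Il7r is in several lists. Hk2 had 12, with 20 to 40 contacts in the upstream deletion and 22 to 46 in WT, and Cdk6 10. Slc7a5, an amino acid transporter, and Cdk4, partner of the D cyclins, had 2 each, while Slc2a1, Slc2a3 and Tfrc had none. Of the AP-1, BATF and IRF factors 6 of 12 had such a loop and 24 of 160 pairs were IL-2-only; Fosl2 led with 12, Batf3 had 4 and Irf4 1. Among naive and memory genes, Satb1 had 8 such loops, Il7r 5 and Ccr7, a lymph node chemokine receptor, 1.

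Of cytokine receptor, JAK and STAT genes 6 of 23 (26.1%, near the 28.7% of all genes) had such a loop, in 14 of 258 pairs (5.43%): Il7r with 5, Il4ra with 4, Il10ra with 2, and Il2rg, the common gamma chain, Il12rb2 and Tyk2 with 1 each. Jak1, Jak3, Stat5a and Stat5b had none. T cell identity genes showed 5 of 14 genes and 9 of 228 pairs (3.95%), among them Cd8b1 and Thy1 with 3 each. Activation and checkpoint genes had 4 of 9 genes and 4 of 37 pairs, effector lineage factors 3 of 6 and 6 of 73 (Bhlhe40, Tbx21 and Runx3), cytotoxic and chemokine genes 3 of 9 and 7 of 91 (Gzmb, Tnf and Fasl), and quiescence and stress genes 3 of 10 and 5 of 110. The housekeeping list was not empty: 5 of 8 genes, Actb, Gapdh, Rpl13a, Ppia and Eef1a1, had IL-2-only loops, 8 of 84 pairs (9.52%), with 20 to 41 contacts. The share of pairs over all gene ends was the 8.7% given above.

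At Il2ra itself there were 12 IL-2-only loops in the locus on chromosome 2, 11 of them with an anchor inside the gene and none at its annotated ends. They had 20 to 28 contacts in the upstream deletion and 20 to 47 in WT. The loop with most contacts joined an intergenic bin (chr2:11631001-11632000) to one inside Il2ra (chr2:11644001-11645000), with 26 (17.0 to 38.1) in the upstream deletion and 47 (34.5 to 62.5) in WT. None of the 12 was listed in either intron deletion library. For most of the 12, an anchor bin had no coverage value in either intron deletion library, as none of its pairs was listed there. Contacts under 20 and bins left out of the peaks cannot be told apart for these loops. The bin inside Il2ra at chr2:11644001-11645000 had 2368 and 1469 reads in the intron deletion with IL-2 and in control. It had 4967 and 3829 in the upstream deletion, and 9434 and 6032 in WT. The intron deletion thus had the lowest coverage there and WT the highest under either treatment. Whether these bins lie within the deleted stretch could not be read from the sources used here. Of the 12 loops 2 had an anchor inside Rbm17 and 1 inside Il15ra. In the wider locus list Prkcq, the T cell receptor kinase PKC theta, was the gene with such loops at an annotated end, 14 of them, of which the intron deletion listed 14 with IL-2 and 4 in control.

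In the intron deletion, the genotype that the rule did not use, 2564 of the 6662 loops were listed with IL-2 (38.5%, 37.3 to 39.7%) and 606 in control (9.10%, 8.42 to 9.81%). Of all 56302 pairs listed in the IL-2 libraries of upstream deletion and WT, the intron deletion listed 80.2% with IL-2 and 56% in control. Both shares of the IL-2-only loops thus lay under this background. Counted by loop, 534 were listed in both intron deletion libraries, 2030 with IL-2 alone, 72 in control alone (1.08%, beside 1.2% of all 56302 pairs) and 4026 in neither. Of all 56302 pairs, 30831 were listed in both intron deletion libraries, 14307 with IL-2 alone and 10489 in neither. The loops listed only in the controls of upstream deletion and WT lay in the same direction: 867 of 1810 (47.9%) were listed by the intron deletion with IL-2 and 391 (21.6%) in control. More listing in the intron deletion IL-2 library was hence found for control-only loops too, beside its 1.44-fold greater depth. When the intron deletion IL-2 counts were scaled down to the depth of the control, 10.6% of the IL-2-only loops kept 20 contacts, against 9.10% in control. A scaled count has less counting error than a raw count of the same size, so these shares are not like for like. The scaled share of all pairs is not reported here, and the part of depth in the gap was not tested.

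The share listed in the intron deletion grew with the count in WT, and in each class of count it was lower for IL-2-only loops. With 20 to 24 contacts in WT with IL-2, 32.9% of 2410 IL-2-only loops were listed in the intron deletion IL-2 library and 7.01% in its control, while the values were 63.0% and 27.9% for 4005 loops that a control of the rule also listed. With 40 to 59 contacts, 55.1% of 450 and 14.4% were listed, against 92.2% and 71.1%. The second set was chosen for being listed in a control and the IL-2-only loops for being in none, so this gap is a description.

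**Figure D4:**
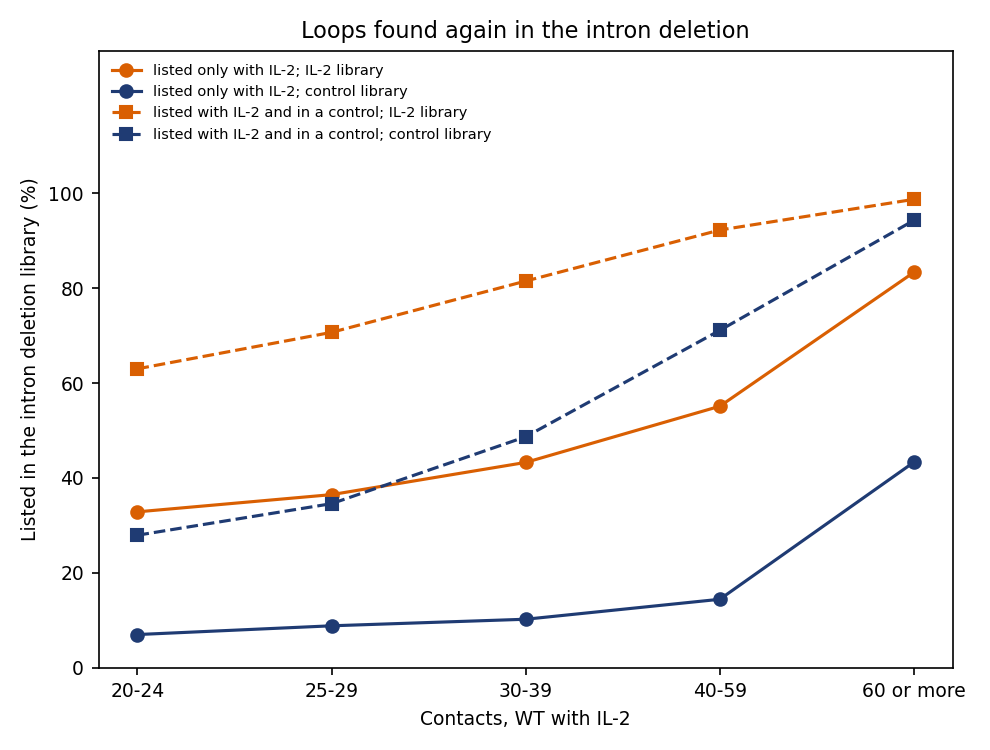
Share of loops listed in the intron deletion IL-2 library (orange) and control library (blue) in percent, by contacts in the WT IL-2 library, for IL-2-only loops (solid lines, circles) and loops listed with IL-2 and in a control of upstream deletion or WT (dashed lines, squares). The orange solid line runs over 32.9% at 20 to 24 contacts and 83.3% at 60 or more, which rests on 30 loops, and stays below the orange dashed line.

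The strongest of the 2030 loops that the intron deletion listed with IL-2 alone lay inside Bcl2 (chr1:106607001-106608000 to chr1:106712001-106713000), with 59 contacts there, 50 in the upstream deletion and 41 in WT with IL-2. A loop from inside Aif1 to inside Lta (chr17:35173001-35174000 to chr17:35204001-35205000) had 52, 44 and 55, and one from an intergenic bin to the end of Prkcq (chr2:11118001-11119000 to chr2:11171001-11172000) had 50, 29 and 38. Others ran from inside Clec16a to intergenic bins, with 48 and 46 contacts in the intron deletion, between the interferon-induced GTPase genes Tgtp2 and Ifi47 with 45, and inside Foxp1 with 45. In the intron deletion control each of these was below the listing limit.

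The 534 loops listed in both intron deletion libraries had 17511 contacts with IL-2 and 12749 in control. Scaled to the 28033 pairs listed in all 6 libraries, this gave 0.954 (interval 0.933 to 0.977), and 39.7% of the loops lay above 1. Over all 36958 pairs listed in both intron deletion libraries 43.7% lay above 1. Summed contacts gave 0.997 for the loops that a control of the rule also listed and 0.863 (0.840 to 0.887) for the 336 loops listed only in its controls. The summed contacts of the 534 IL-2-only loops thus gave a scaled ratio slightly under 1 in the intron deletion. Over all 36958 pairs it was 0.984. A loop needs 20 contacts in both intron deletion libraries to enter this sum, so the 534 do not stand for the 6662. In the shallower control, 69.0% of the IL-2-only loops listed there had 20 to 24 contacts, and a cut so near the counts can itself lower the ratio. The ratio therefore does not show a decrease with IL-2, and the part of the cut in it was not tested.

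Coverage of the anchor bins includes loops under the limit, but a bin has a value only where a library listed it in a pair. Both anchors were listed for 80.2% of the IL-2-only loops in the intron deletion IL-2 library and for 52.3% in its control. How far the missing bins move the values below was not tested. In the intron deletion 4854 of the 7711 anchor bins had a value in both libraries, with a median scaled ratio of 1.02 (5th to 95th percentile 0.920 to 1.17), and the other bins had 0.988. More than 25% higher with IL-2 were 52 anchor bins (1.07%), against 0.67% of all 21633 bins, and more than 20% lower, the same fold downward, were 4 (0.0824%), against 0.716%. The greatest of these ratios, 1.49, was in an intergenic bin beside Nabp1 (chr1:51519001-51520000), and 3 more of the 10 largest lay within 6 kb of it.

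In the upstream deletion and WT, where anchor coverage is tied to the rule, medians were 1.10 and 1.09 at anchors and 0.949 and 0.954 in other bins. There 27.8% of anchor bins were more than 25% higher in the upstream deletion, beside 11.1% of all bins, and 24.4% in WT, beside 9.28%. More than 20% lower were 2.63% of anchor bins in the upstream deletion, beside 13% of all bins, and 1.77% in WT, beside 11.1%. Of 4492 anchor bins listed in all 6 libraries, 886 were more than 25% higher in both of these genotypes, with median ratios of 1.08 (quartiles 1.03 and 1.14) in the intron deletion, 1.49 in the upstream deletion and 1.42 in WT. In the intron deletion 769 of the 886 (86.8%) had a ratio above 1, beside 65.0% of all 4854 anchor bins and 48.3% of all bins, and 33 (3.72%) were more than 25% higher. The medians in the upstream deletion and WT follow from that choice. Relative to the WT control, their median coverage was 1.08 in the intron deletion IL-2 library and 1.01 in its control, 1.496 and 0.982 in the upstream deletion, and 1.42 in WT with IL-2.

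**Figure D5:**
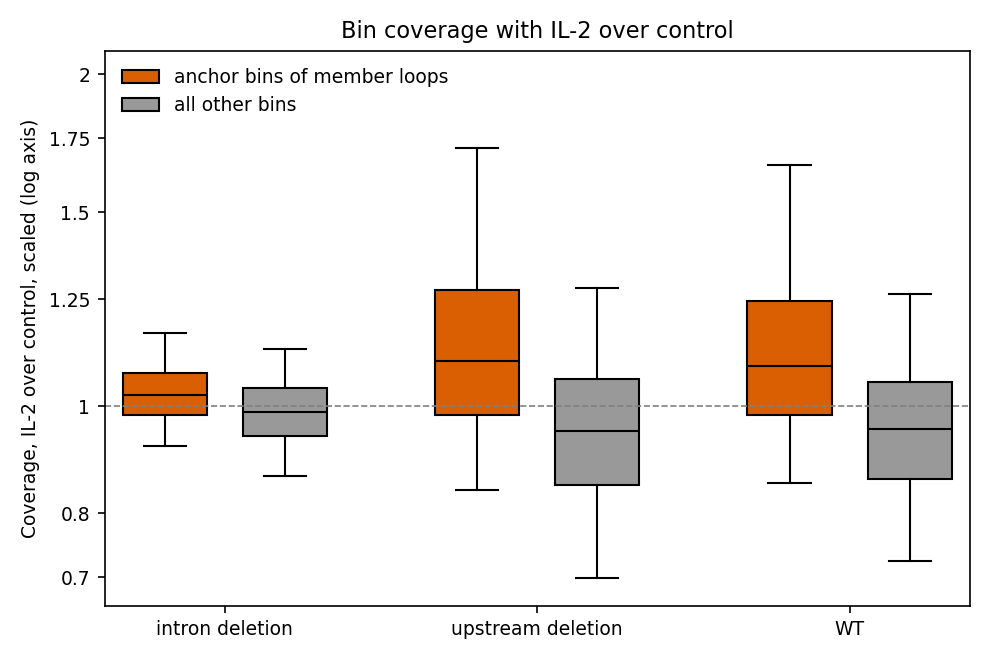
Scaled coverage with IL-2 over control (log axis) in the intron deletion, upstream deletion and WT, for anchor bins of IL-2-only loops (orange) and all other bins (grey); boxes span the quartiles, lines mark medians and whiskers the 5th and 95th percentiles. Medians at anchors are 1.02, 1.10 and 1.09; in the upstream deletion and WT the loops were chosen on these libraries.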

How the data were processed

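H3K27ac HiChIP tables of 6 libraries were analysed; the 19 ChIP-seq samples of the series were not used here. The submitters' processing notes name CASAVA, Bowtie2 2.2.6, HiC-Pro and the build GRCm38 (mm10). Deposited tables follow the format of FitHiChIP, a loop caller, with ICE bias; no source used here gives its version or peak set. Each row holds a pair of 1 kb bins, a deposited count of contacts and a deposited count of reads for each bin (coverage). These counts were not normalised by the authors as far as the values show: they are whole numbers with totals that differ between libraries. Tests on the tables found no pair under 20 contacts or 5 kb, and both bins of every pair marked as peaks. The p-value and q-value columns were not used.

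Pairs were matched on all 6 coordinates. Contacts and coverage with IL-2 were divided by those in control after scaling by the pairs, or the bins, listed in all 6 libraries (28033 and 18580). A coverage call is a ratio more than 25% above 1 or, the same fold downward, more than 20% below. Intervals are exact Poisson, exact Clopper-Pearson or exact conditional binomial at 95% (scipy 1.17.1) and cover counting error only, since reads carry no molecular identifiers. TMM factors came from edgeR 4.0.16 (R 4.3.3), used for scaling alternatives alone; no model was fitted. Tables were handled with pandas 2.3.3 and numpy 2.4.6 in Python 3.11.15. The selection and scaling steps were run on simulated data to check that they work as written, a check too coarse for ratios near 1.

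Genes and promoters came from RefSeq for GRCm38.p6. Named items followed a rule: the 10 largest loci, the 10 strongest loops, the 10 strongest loops that the intron deletion listed with IL-2 alone, the 10 genes with the most loops at an end, list genes with an end at an anchor, the Il2ra locus and the loops at the limit; the promoters printed, the loci beyond the 10 largest (Prkcq, Cd8b1, Nabp1, Gimap and Lta) and the loops listed in the intron deletion control alone were picked with values known. The count over the naive and memory list is not reported here. The loops, gene lists and tests were chosen with earlier results of these data known. Alternatives changed the matching tolerance, contact minimum, depth scaling, genotypes, fold, coverage filter and definition of a gene end.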

Additional observations from a re-analysis of the deposited data

Results flagged for a closer look

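Against the direction by which the loops were chosen, 72 of the 6662 IL-2-only loops were listed in the intron deletion control library and not in its IL-2 library, although the IL-2 library was the deeper. That is 1.08%, near the 1.20% (675) of all 56302 pairs listed in both IL-2 libraries of upstream deletion and WT. The difference from upstream deletion and WT was not tested, since there is 1 library per genotype and treatment. The strongest of the 72 had 27 contacts in the intron deletion control: a loop from inside Fosb to the shared end of Cd3eap and Ppp1r13l (chr7:19309001-19310000 to chr7:19359001-19360000), with 22 contacts in the upstream deletion and 33 in the WT IL-2 library, and a loop from the end of Ndufa13 and Tssk6 to the end of Gatad2a (chr8:69902001-69903000 to chr8:69996001-69997000), with 25 and 30. Another at 27 contacts was intergenic (chr8:120699001-120700000 to chr8:120726001-120727000), with 26 and 37. All 3 lie near the limit of 20.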

How the results depend on the processing

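The number of IL-2-only loops depended on every setting tried. It was 2196 when a control pair within 1 bin also counted as listed, 1873 and 598 with at least 25 and 30 contacts in both IL-2 libraries, 3428 with IL-2 counts scaled to the depth of the control, 32693 for WT alone, 17897 for the upstream deletion alone, and 3958 with both anchors listed in both controls, a setting chosen after seeing the data. The share that the intron deletion listed with IL-2 became 72.8% with partners within 1 bin, 46.0% and 55.4% at 25 and 30 contacts, 43.0% after depth scaling of the choice, 10.6% with the intron deletion IL-2 counts scaled to their control, and 39.9% with anchors in both controls. The share listed in its control became 42.0%, 12.5%, 14.7% and 11.0% under the first 4 of these. Scaling by all listed contacts gave a contact ratio of 0.666 and turned the median anchor coverage ratio to 0.722, with 0% of anchors past 25% higher; that total grows with the number of pairs listed. The other scalings moved neither value beyond its spread. Anchors past 25% higher were 0.796% among bins with at least 500 reads, and 0% passed 1.5-fold. Genes at anchors numbered 1955 within 1 bin, and 1195 by start sites, a setting chosen after seeing the data. No paired analysis was possible because the results come from no test, each genotype and treatment has 1 library here and the labels give no replicate numbers; no replicate could be left out. A fit of IL-2 with genotype as a block was not run, as 4 of its 6 libraries chose the loops.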

Other observations

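Among IL-2-only loops, some loci were listed in the intron deletion more fully than the 38.5% of the whole set. At Prkcq the intron deletion listed 56 of 60 with IL-2 and 27 in control, and at Cd8b1, a chain of the CD8 coreceptor, 36 of 37 and 27. At Nabp1, a single-stranded DNA binding protein gene, it listed 12 of 65 and 0, although 4 of the 10 largest intron deletion coverage ratios lay in bins beside that gene. At the Gimap cluster, GTPase genes of lymphocytes, it listed 40 of 65 with IL-2 and 16 in control, and the median anchor ratios there were 1.07 (intron deletion), 1.03 (upstream deletion) and 1.05 (WT).

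At the leading bin of Prkcq, scaled coverage was 9063 reads with IL-2 and 7380 in control for the intron deletion, 7145 and 4358 for the upstream deletion, and 6124 and 3822 in WT, so both intron deletion libraries stood above the other 4. At the leading bin of the Lta locus the values were 4838 and 4157 for the intron deletion, 7285 and 3117 for the upstream deletion, and 7969 and 3444 in WT. The intron deletion control was the highest of the controls in both bins.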
